A study of Mus musculus and Homo sapiens with 9 samples.

Results

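R-loop peaks of mouse embryonic fibroblasts (MEFs) with DDX5 knocked down (shDdx5) were compared with those of MEFs given a control shRNA (shControl). The comparison took every peak of the 2 lists on the assembled mm10 chromosomes, 24027 of the 102574 peaks in the 9 lists of the series. A peak was called shared when it had at least 1 bp in common with a peak of the other list, and otherwise shDdx5-only or shControl-only. There were 9395 shDdx5-only and 2373 shared peaks in the shDdx5 list, and 9883 shControl-only and 2376 shared peaks in the shControl list.

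Both libraries were made by CUT&Tag, in which a transposase is guided by an antibody and cuts out the DNA around the bound site for sequencing, with the S9.6 antibody against RNA-DNA hybrids. The MEFs of the study were grown from the trunk of E13.5 embryos and immortalised with an SV40 lentivirus, and Ddx5 was knocked down with an adenovirus that carries 1 shRNA. The construct behind shControl and the Mcm8 genotype of both cell populations are not given in the sources used here. Each group was 1 library, so every interval below covers counting error only, no p-value was computed between the lists, and knockdown cannot be told apart from library. A peak list shows neither Ddx5 RNA nor DDX5 protein, and so cannot check the knockdown. The paper checked it in MEFs by western blot. The peak names inside the shControl list begin with shD1 and those inside the shDdx5 list with shD2. Neither prefix marks a control, so the groups follow the sample labels.

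An R-loop forms when an RNA pairs with the DNA strand it was copied from and the other strand is left single. R-loops are most often found near the start of active genes, above all where the DNA is rich in G and C and in CpG dinucleotides, as in CpG islands. DDX5 is a DEAD-box RNA helicase that unwinds RNA-DNA hybrids. It also takes part in transcription and splicing.

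The kinds of DNA in the 3 classes are shown first by 100 bp of reference sequence (GRCm38.p6, the assembly of mm10) around the summits of peaks with the highest −log10 q of their class, leaving out windows over an exon. Capitals mark CpG dinucleotides, which read the same on both strands. The shDdx5-only windows were these.
shDdx5-only, nearest Fbxw4, chr19:45650122-45650221, plus strand: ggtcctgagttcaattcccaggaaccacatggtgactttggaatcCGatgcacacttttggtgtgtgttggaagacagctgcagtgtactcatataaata
shDdx5-only, nearest Stk3, chr15:35155818-35155917, plus strand: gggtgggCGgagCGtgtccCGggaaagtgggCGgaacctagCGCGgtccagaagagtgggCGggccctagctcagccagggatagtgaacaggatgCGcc
shDdx5-only, nearest Rab11fip5, chr6:85374780-85374879, plus strand: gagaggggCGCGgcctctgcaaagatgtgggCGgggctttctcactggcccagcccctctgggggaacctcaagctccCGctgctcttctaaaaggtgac

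The windows near Stk3, a kinase of the Hippo pathway, and Rab11fip5, which binds the trafficking GTPase RAB11, held 8 and 4 CpG, and the Fbxw4 intron window held 1. Of the shControl-only windows below 2 had no CpG, and the Gm43526 locus also carried a peak in the no-antibody library.
shControl-only, nearest Gm7103, chr3:8245798-8245897, plus strand: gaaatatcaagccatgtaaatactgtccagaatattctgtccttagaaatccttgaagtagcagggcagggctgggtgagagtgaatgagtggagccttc
shControl-only, nearest 1700129L04Rik, chr15:95136375-95136474, plus strand: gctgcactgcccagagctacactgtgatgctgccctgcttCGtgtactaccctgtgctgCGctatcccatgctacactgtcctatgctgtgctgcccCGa
shControl-only, nearest Gm43526, chr3:157116127-157116226, plus strand: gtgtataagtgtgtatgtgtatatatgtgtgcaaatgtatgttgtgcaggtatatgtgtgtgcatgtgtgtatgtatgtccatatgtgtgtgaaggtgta

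The shared windows with the highest −log10 q in both lists held 11 and 1 CpG. Both of these loci also carried a peak in the library made without a primary antibody.
shared, nearest Gm11668, chr11:109011853-109011952, plus strand: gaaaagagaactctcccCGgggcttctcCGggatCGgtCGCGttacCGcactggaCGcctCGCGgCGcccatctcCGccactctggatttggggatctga
shared, nearest Gm5466, chr2:181917735-181917834, plus strand: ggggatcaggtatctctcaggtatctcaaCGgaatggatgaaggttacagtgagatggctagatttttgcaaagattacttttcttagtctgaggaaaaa

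These few loci are extremes, and the whole classes are closer together. Over all summits, a 100 bp window held no CpG in 27.1% of shDdx5-only peaks (95% interval 26.2 to 28.0%), in 38.0% of shControl-only peaks (37.1 to 39.0%) and in 11.9% of shared peaks of the shDdx5 list (10.6 to 13.2%). At promoters the median was 6 CpG per window for shDdx5-only peaks, 3 for shControl-only peaks and 7 for shared peaks of either list.

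The depth of the lists was close. The lowest local background divided by the shortest peak width of each list gave 7001 fragments per Mb for shDdx5 and 6822 for shControl, a ratio of 1.03. The shortest peaks were 239 bp in shDdx5 and 212 bp in shControl, and the lowest local background at a summit was 1.67 and 1.45 fragments, a ratio of 1.16, so fragment counts at summits start from a higher level in shDdx5. Peaks of shDdx5 more often passed a strict limit, with a q of at most 0.05 in 60.5% of them against 28.1% in shControl. On chromosome 7 both lists were sparse, with 3.42% of the shDdx5 and 3.31% of the shControl peaks against 6.40% in Mcm8 WT and 5.99% in Mcm8 KO MEFs.

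The 2 lists had few places in common. The shDdx5 list overlapped the shControl list at 20.2% of its peaks (19.4 to 20.9%), and the shControl list overlapped the shDdx5 list at 19.4% (18.7 to 20.1%). Most peaks of 1 list were not near misses, since 80.3% of shDdx5-only and 82.3% of shControl-only peaks lay over 10 kb from the nearest peak of the other list, and 4.10% and 3.60% lay within 1 kb. Just inside the rule were a pair of peaks near Smpd2 (chr10:41489832-41490089 in shDdx5, chr10:41490088-41490317 in shControl, 2 bp in common, folds 3.40 and 4.12) and a pair near Galnt10 with 2 bp in common (folds 3.15 and 3.53). Just outside was a pair near Fam186a with 1 bp between them (chr15:99959257-99959558 and chr15:99958955-99959255, folds 3.58 and 3.14). Overlap depended on strength. In the 25% of each list with the lowest −log10 p, 6.42% of shDdx5 and 5.68% of shControl peaks were shared, and in the highest 25% 47.2% and 43.6%.

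The total number of peaks was alike, 11768 in shDdx5 and 12259 in shControl, a ratio of 0.960 (0.936 to 0.985). This order turned at a stricter limit, since 7119 shDdx5 and 3442 shControl peaks had a q of at most 0.05, a ratio of 2.07. A given q was not the same p in the 2 lists. Near the start of Ddx5, a −log10 q of 2.29 went with a −log10 p of 6.06 in shDdx5, and 2.23 with 6.68 in shControl. A limit on q was thus a looser limit on p in shDdx5. With a fold of at least 4 the ratio was 1.37. The shDdx5 peaks covered 4.95 Mb with a mean width of 421 bp, and the shControl peaks covered 4.07 Mb with a mean width of 332 bp.

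Where the lists did meet, the shDdx5 peak had the higher fold at most promoters, and away from promoters the folds were alike. Of 2364 pairs, each the best match of the other, 63.5% had the higher fold over local background in shDdx5 (61.6 to 65.5%). In the 1680 pairs with both peaks at a promoter it was 68.3% (66.0 to 70.5%), with median folds of 4.45 in shDdx5 and 3.95 in shControl and a median ratio of 1.12 (quartiles 0.955 to 1.31). In the 678 pairs with neither at a promoter it was 52.1% (48.3 to 55.8%), with median folds of 3.69 and 3.68. The number of fragments stacked at a summit (the pileup) was also solved from the fold and p of each peak. The fold is a ratio taken after a constant is added to both pileup and background. At equal enrichment it is thus higher where background is higher. How much of the fold difference this makes up was not tested. The median pileup ratio, shDdx5 over shControl, was 1.36 at promoters and 1.12 elsewhere. It has to be read against local background, which was also higher in shDdx5. Over all shared peaks the median background was 2.75 fragments in shDdx5 and 2.14 in shControl at promoters. Elsewhere it was 2.35 and 1.94. The shDdx5 peak was the wider in 72.2% of pairs (70.3 to 73.9%). Median widths at promoters were 563 bp in shDdx5 and 390.5 bp in shControl, and elsewhere 399 and 348 bp.

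Promoters held a larger share of the shDdx5-only than of the shControl-only peaks. A promoter peak here has its midpoint within 1 kb of the start of any annotated transcript (TSS). Of shDdx5-only peaks 35.9% were at promoters (35 to 36.9%, 3377 of 9395) and of shControl-only peaks 16.7% (15.9 to 17.4%, 1646 of 9883), a difference of 19.3 percentage points (18.1 to 20.5). Shared peaks were at promoters at 71.1% in the shDdx5 and 71.2% in the shControl list. The other positions took smaller shares in shDdx5-only than in shControl-only peaks, with 29.1% against 36.7% in introns, 22.3% against 30.4% between genes and 9.75% against 12.1% at 1 to 3 kb from a TSS. Coding exons held 1.04% and 1.56%.

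**Figure D1:**
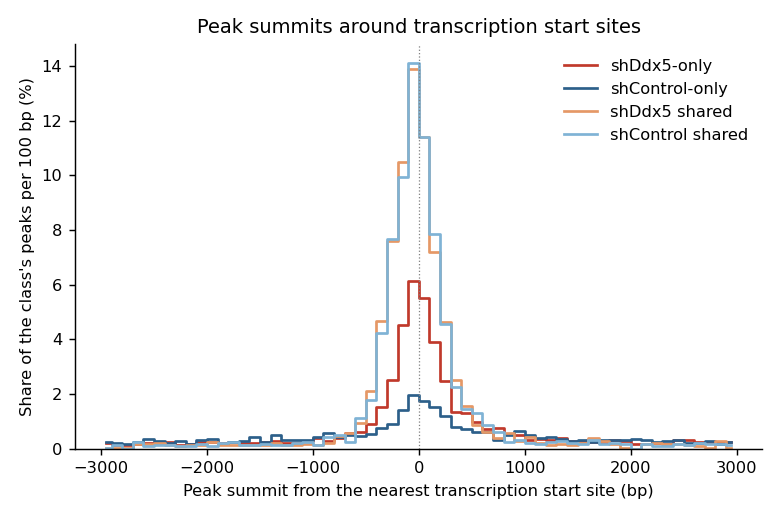
Share of the peaks of each class whose summit falls in each 100 bp bin, against the distance from the nearest TSS (bp, positive in the direction of transcription). The bin just upstream of the TSS holds 6.14% of shDdx5-only and 1.95% of shControl-only peaks, and the shared peaks of both lists stand above both.

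Summits of shDdx5-only peaks also sat closer to the TSS. Among summits within 1 kb of a protein-coding TSS, 65.8% of the shDdx5-only ones (64.1 to 67.5%) and 50.4% of the shControl-only ones (47.7 to 53.1%) were within 250 bp of it, against 71.9% and 72.4% of the shared ones. The 2 classes fell about evenly on each side, with 49.8% of shDdx5-only (48.0 to 51.7%) and 52.2% of shControl-only summits (49.5 to 54.9%) downstream of the TSS, while shared summits leaned upstream, with 41.2% downstream in the shDdx5 list (38.8 to 43.7%). GC skew, the excess of G over C on the strand that reads like the RNA, was positive in 66.6% of downstream shDdx5-only peaks and in 62.0% of the shControl-only ones.

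The 2 classes were next compared at equal −log10 p. In shDdx5-only peaks it climbed with −log10 p, from 21.6% (19.8 to 23.4%, n = 1981) at 3 to 4 to 56.6% (54.0 to 59.2%, n = 1382) at 6 to 8 and 88.4% (82.6 to 92.5%, n = 164) at 10 or more. In shControl-only peaks it was 13.4% (12.4 to 14.4%, n = 4524) at 3 to 4 and 26.1% (23.1 to 29.4%, n = 742) at 6 to 8. Above 10 there were only 10 shControl-only peaks, 3 of them at promoters (10.8 to 60.3%), so the classes cannot be compared closely there. Whether a peak counts as shared is set by the other list, so the share was also taken over all peaks of each list, shared ones included, where the gap was smaller. It was 22.7% in shDdx5 (20.9 to 24.5%) and 15.7% in shControl (14.7 to 16.8%) at 3 to 4, and 60.8% (58.6 to 63.0%) and 48.7% (46.0 to 51.3%) at 6 to 8. At 8 to 10 the shares were 75.5% (72.4 to 78.4%) and 73.3% (68.1 to 77.9%), with overlapping intervals, and at 10 or more 89.7% (87.4 to 91.7%) and 79.6% (73.6 to 84.5%). At equal pileup, which takes no account of the higher background of shDdx5, the classes differed as well. With 12 to 14 fragments at the summit 54.8% of shDdx5-only peaks (52.5 to 57.1%) and 33.6% of shControl-only peaks (29.9 to 37.4%) were at promoters, and with 8 or 9 fragments 20.2% (18.9 to 21.6%) and 16.0% (14.9 to 17.1%). Within a chromosome the share ran from 25.9 to 54.8% in shDdx5-only and from 12.1 to 30.5% in shControl-only peaks over the autosomes, with chromosome 7 highest in both.

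**Figure D2:**
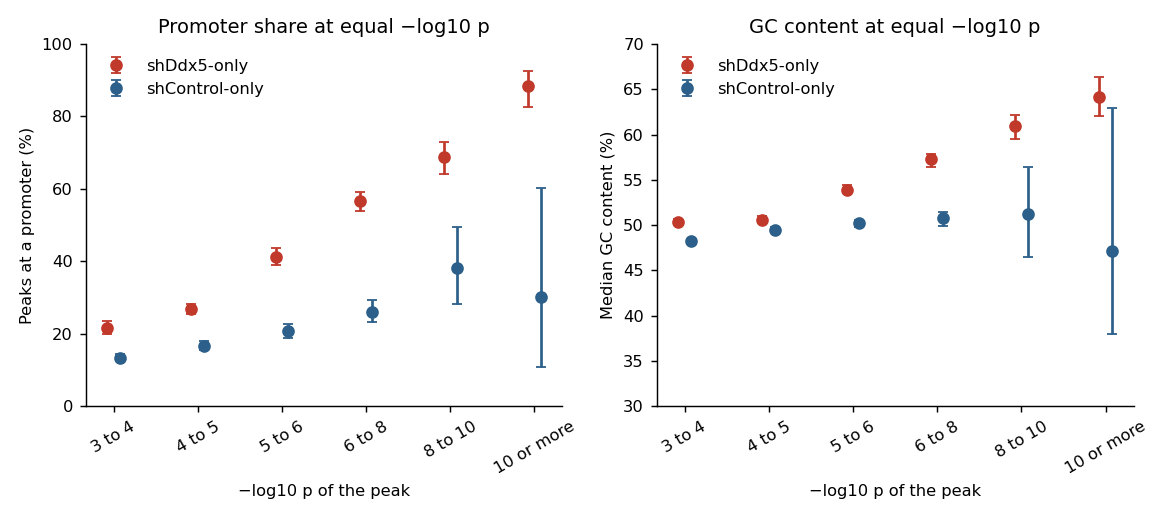
Promoter share (left, %) and median GC content (right, %) of shDdx5-only and shControl-only peaks in 6 ranges of −log10 p. Points are the classes of 1 library each and bars are 95% intervals for counting error. At 6 to 8, 56.6% of shDdx5-only and 26.1% of shControl-only peaks are at promoters, and above 10 the shControl-only points rest on 10 peaks.

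In base composition shDdx5-only peaks stood between shControl-only and shared peaks. Median GC was 52.4% in shDdx5-only (52.2 to 52.6), 49.1% in shControl-only (48.9 to 49.3) and 61.5% in shared peaks of the shDdx5 list (61.1 to 62.0), against 41.7% for the genome. The difference was mainly one of promoters. At promoters the medians were 62.2% and 55.8% for shDdx5-only and shControl-only peaks, and away from promoters 49.2% and 48.2%. GC content and a CpG ratio (observed over expected CpG) can be used together to pick out island-like DNA, here GC of at least 50% with a ratio of at least 0.6. By that rule 23.1% of shDdx5-only peaks (22.2 to 23.9%), 6.04% of shControl-only peaks (5.59 to 6.53%) and 59.2% of shared peaks of the shDdx5 list (57.2 to 61.2%) were island-like. Among promoter peaks alone the shares were 61.5% in shDdx5-only and 32.9% in shControl-only. Peaks with most of their bases masked as repeats made up 8.64% of shDdx5-only and 13.7% of shControl-only peaks.

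**Figure D3:**
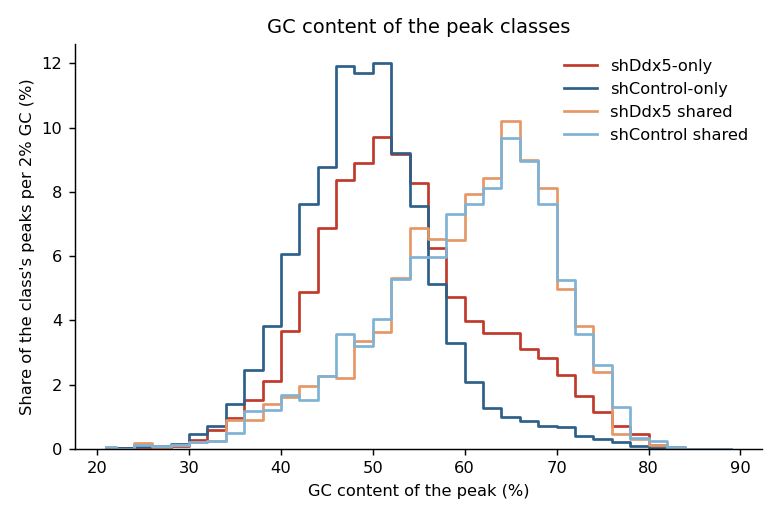
Distribution of GC content (%, in steps of 2%) over the peaks of each class. shControl-only peaks have 1 hump with a median of 49.1%, shDdx5-only peaks have a tail to high GC (median 52.4%, 23.4% of peaks above 60% GC), and the shared peaks of both lists have medians of 61.5% and 61.4%.

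The 2 lists have different shortest peaks, 27 bp apart, which bears on any comparison of width. shDdx5-only peaks had a median of 337 bp (334 to 340, quartiles 279 to 440) against 280 bp (278 to 282, quartiles 240 to 348) in shControl-only peaks. A width over 500 bp was found in 16.9% and 5.09% of them. The median pileup was 10.0 fragments in shDdx5-only and 8 in shControl-only peaks. At 12 to 14 fragments the median widths were 386 and 319 bp.

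Seen by gene, promoter peaks in only 1 list belonged to shDdx5 more often. Of 21938 protein-coding genes, 2144 (9.77%) had a promoter peak in both lists, 2924 (13.3%) in shDdx5 only and 1089 (4.96%) in shControl only, a ratio of the last 2 counts of 2.69 (2.50 to 2.88). The ratio depended on the limit on q, at 6.34 with a q of at most 0.05 and 25.2 with a q of at most 1e-05, where 32 genes had a peak in shControl only. A limit on q was looser in p for shDdx5. With the 3000 peaks of highest −log10 p in each list the ratio was 2.50. Neighbouring genes can share a peak, and the 2924 genes rested on 2611 peaks and the 1089 on 991. Of 10155 genes for long noncoding RNAs 431 (4.24%) had a promoter peak in shDdx5 only and 196 (1.93%) in shControl only, a ratio of 2.2 (1.86 to 2.60). Small RNA genes were nearer to even, with 136 (2.24%) and 116 (1.91%) of 6084 (ratio 1.17, 0.915 to 1.5). Pseudogenes went the other way, with 57 in shDdx5 only and 87 in shControl only (ratio 0.655, 0.469 to 0.915). These were small shares of 13523 pseudogenes, 0.422% and 0.643%.

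The genes with a promoter peak in shDdx5 only stood between those with a peak in both lists and those in shControl only in the share of island-like promoters. A promoter was counted as island-like by the rule above over the 1 kb around the gene start. It was island-like in 78.5% of genes with a peak in both lists (76.8 to 80.2%), 73.7% in shDdx5 only (72.1 to 75.3%), 62.8% in shControl only (59.9 to 65.6%) and 33.1% with a peak in neither. A protein-coding gene starting upstream on the opposite strand within 1 kb was found for 16.7%, 12.9%, 9.64% and 4.10% of these groups. Median gene length differed less, at 27.5, 24.0 and 25.5 kb for the first 3 groups and 14.4 kb for genes with no promoter peak.

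The genes of the study's own interest were looked up next. Ddx5 itself (chr11:106780355-106789185, minus strand) had a peak near its start in both lists, chr11:106788642-106789277 in shDdx5 (fold 3.69, 636 bp) and chr11:106788620-106788922 in shControl (fold 4.02, 303 bp). The shDdx5 peak spanned the gene start. The shControl peak lay inside the gene, with its summit 466 bp downstream of the start. Of the 2 lists only shDdx5 had a further peak, just past the end of the gene (chr11:106779400-106780099, fold 4.67), where another annotated start lies within 1 kb. The Mcm8 KO list held peaks at both ends of the gene and the Mcm8 WT list none. Ddx17, the close paralogue of Ddx5, had a promoter peak in shDdx5 only (chr15:79545946-79546830, fold 4.07, pileup 15, GC 66.9%), and Dhx9, another helicase active on RNA-DNA hybrids, in shControl only (chr1:153487012-153487426, fold 4.05, pileup 9). Mcm8, which encodes a helicase of recombination repair, had a peak in shDdx5 only (chr2:132815704-132816126, fold 4.31), 141 bp upstream of the gene by its summit. The Mcm8 KO list had a different peak there, inside the gene, with its summit 448 bp from the gene start (fold 3.31). It also had a peak inside Dhx9, 12964 bp from the start (fold 4.55), and none at Ddx17. The Mcm8 WT list had none at Ddx17, Dhx9 or Mcm8. Cdk4, the kinase that acts with D-type cyclins at the G1 to S transition, had a peak in shDdx5 only (chr10:127063258-127063812, fold 3.73, pileup 17). The Mcm8 KO list had a peak at the same place (fold 3.75) where the Mcm8 WT and no-antibody lists had none. The paper displays Cdk4, from its own CUT&Tag data, as a representative gene with gain after both Mcm8 knockout and Ddx5 knockdown. Its pattern here is thus no independent observation.

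The promoter sequences of Cdk4 and Ddx17 are given as examples of shDdx5-only promoters, as the bases before the RefSeq gene start in GRCm38.p6, with CpG in capitals. The Cdk4 stretch lies wholly inside its peak, and the Ddx17 stretch overlaps the upstream end of its peak. In the 250 bases before the start Cdk4 held 13 CpG and Ddx17 23, numbers reached by 31.5% and 13.3% of 32851 RefSeq promoters, whose median was 6. Dhx9, with its promoter peak in shControl only, held 18, reached by 21.7%, so a high number was not particular to the shDdx5-only examples.
Cdk4 promoter, chr10:127063285-127063533, plus strand: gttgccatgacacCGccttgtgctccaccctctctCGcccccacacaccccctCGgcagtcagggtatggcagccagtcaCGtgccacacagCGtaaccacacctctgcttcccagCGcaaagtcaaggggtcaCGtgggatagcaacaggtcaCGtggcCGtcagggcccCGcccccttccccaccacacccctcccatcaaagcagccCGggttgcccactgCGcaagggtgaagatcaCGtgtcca
Ddx17 promoter, chr15:79546742-79546991, minus strand: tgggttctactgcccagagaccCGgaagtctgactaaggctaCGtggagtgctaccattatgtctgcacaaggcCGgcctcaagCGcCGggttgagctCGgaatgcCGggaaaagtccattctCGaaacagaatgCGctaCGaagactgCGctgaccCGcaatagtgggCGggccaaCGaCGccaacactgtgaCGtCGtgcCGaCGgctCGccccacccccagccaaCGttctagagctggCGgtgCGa

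The shDdx5-only peaks with the highest −log10 q were mostly promoter peaks. Of the first 8, 6 were at promoters, with folds from 6.59 to 10.8. They included the promoters of Armc10 (chr5:21645741-21646352, fold 7.82, pileup 28, GC 68.8%), which it shares with Fbxl13, Nrbp1 (chr5:31240793-31241343, fold 7.29, GC 77.5%), Stk3 (chr15:35155546-35155984, fold 7.50), Rab11fip5 (fold 6.59) and Cdv3 (fold 6.88). The first, at the pseudogene Gm4076 (chr13:85126562-85127398, fold 10.8), overlapped a no-antibody peak, and the other 7 did not. Of the 8, 5 overlapped a peak in Mcm8 WT MEFs and 6 in Mcm8 KO MEFs.

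The corresponding shControl-only peaks were weaker and mostly away from promoters. Of the first 8, 2 were at promoters, those of Ints13, a subunit of the Integrator complex (chr6:146577366-146577829, fold 6.95), and Rcl1, an rRNA processing factor (fold 5.81). The others lay in introns, between genes or, at the ion channel gene Piezo1 (fold 4.69, 859 bp), 1996 bp from a TSS and 1590 bp from the nearest shDdx5 peak. Folds ran from 4.69 to 9.37, and 1 of the 8 overlapped a no-antibody peak. Of the same 8, 4 overlapped a peak in Mcm8 WT MEFs and 5 in Mcm8 KO MEFs, close to the counts for the shDdx5-only peaks. Of the 5 strongest shared places 4 overlapped a no-antibody peak, against 2.78% of all shared peaks of the shDdx5 list, among them an exon of Lars2, the mitochondrial leucyl-tRNA synthetase (folds 28.5 in shDdx5 and 23.8 in shControl). The remaining one, next to Gm23935 (chr16:11143924-11144295), had folds of 26.0 and 24.5.

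Gene lists were then counted, each beside all protein-coding genes, where 13.3% had a promoter peak in shDdx5 only and 4.96% in shControl only. In 20 of 23 lists more genes had a promoter peak in shDdx5 only than in shControl only, in 1 the numbers were equal and in 2 they were lower. A ratio of the 2 counts could be formed for 21 lists, and the interval of each included the 2.69 of all protein-coding genes, so no list is shown to differ from the background in this ratio. A second background bears on lists of widely expressed genes. Among all genes with an island-like promoter 22.1% had a promoter peak in shDdx5 only (21.3 to 23%) and 7.02% in shControl only (6.53 to 7.55%), and without one 6.30% and 3.32%.

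**Figure D4:**
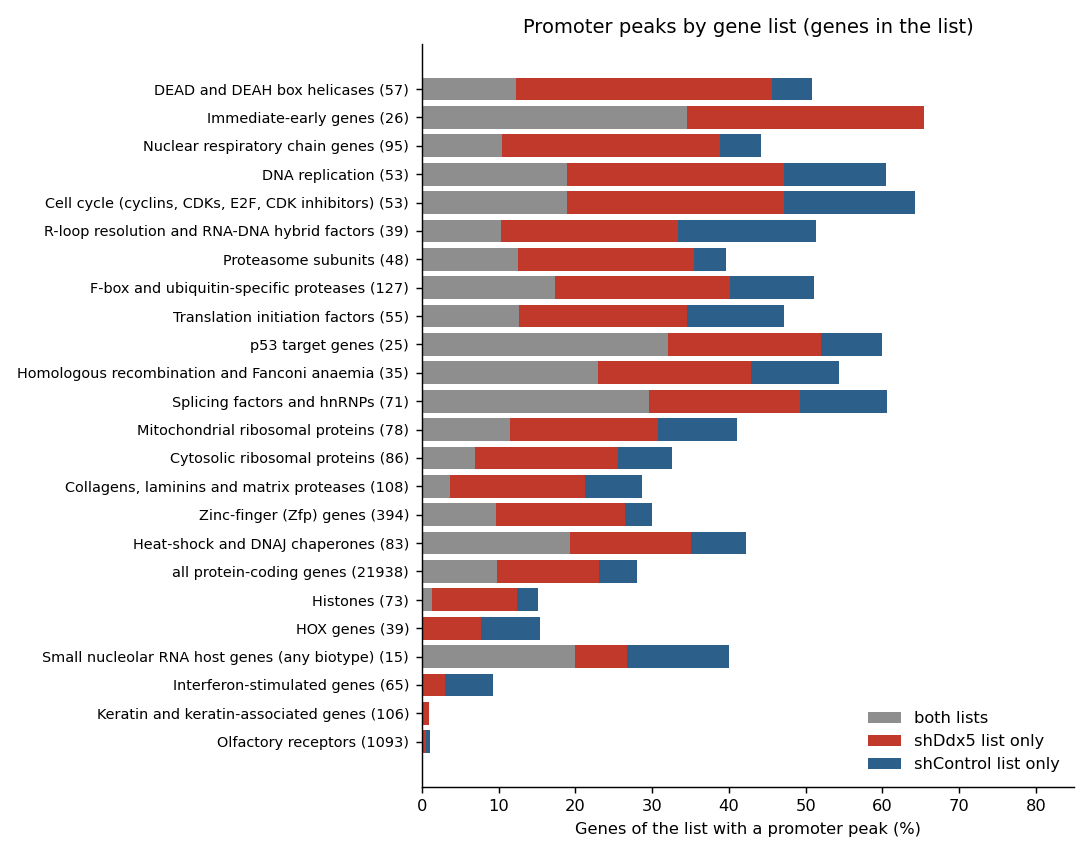
Share of the genes of each list (%) with a promoter peak in both lists (grey), in shDdx5 only (red) and in shControl only (blue), ordered by the shDdx5-only share, with the number of genes in brackets. All protein-coding genes stand at 9.77, 13.3 and 4.96%, the DEAD and DEAH box helicases at 12.3, 33.3 and 5.26%, and olfactory receptor and keratin genes near 0.

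Among genes that act on RNA and R-loops, the DEAD and DEAH box helicases, the family of DDX5, had 19 of 57 genes (33.3%) in shDdx5 only and 3 (5.26%) in shControl only, a ratio of 6.33 (1.87 to 21.4). Examples were Ddx31 (fold 5.41) and Eif4a1, the helicase of translation initiation (fold 4.62), in shDdx5 only, and Dhx37 (fold 3.51) in shControl only. Factors known to limit R-loops had 9 of 39 in shDdx5 only and 7 in shControl only (ratio 1.29, 0.479 to 3.45). The former included Tdrd3, the partner of topoisomerase TOP3B (fold 5.72), and the latter Dhx9 and Thoc6, a subunit of the THO complex (fold 2.82). Splicing factors and hnRNPs had 21 of 71 in both lists (29.6%), 14 in shDdx5 only and 8 in shControl only, with Hnrnpr (fold 4.39) and Prpf18 (fold 4.53) as the examples. Of 55 translation initiation factors 12 were in shDdx5 only, led by Eif4e, the cap-binding protein (fold 5.69, pileup 19), and 7 in shControl only, led by Eif3k (fold 4.89).

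Genes of DNA replication and repair had 15 of 53 and 7 of 35 in shDdx5 only, and 7 and 4 in shControl only (ratios 2.14, 0.874 to 5.26, and 1.75, 0.512 to 5.98). In shDdx5 only were Rrm2, a subunit of ribonucleotide reductase (fold 5.73, pileup 19), Mcm7, of the replicative helicase (fold 3.95), Fanci, of the Fanconi anaemia pathway (fold 5.08), and Mre11a, of the break-sensing nuclease complex (fold 4.86). In shControl only were Rpa1, which coats single-stranded DNA (fold 4.48), Wdhd1 (fold 4.34) and Nbn, which works with MRE11 (fold 4.09). Cell cycle genes had 15 of 53 in shDdx5 only, among them Ccne1, or cyclin E1 (fold 4.78), and Cdc25c, a phosphatase that activates CDK1 (fold 4.51), and 9 in shControl only (ratio 1.67, 0.729 to 3.81), among them Cdk7 (fold 4.37) and Cdkn2c (fold 3.95). Of 25 p53 target genes 8 were in both lists, 5 in shDdx5 only (with the CDK inhibitor Cdkn1a at fold 3.37 and Ccng1 at 4.11) and 2 in shControl only (Pmaip1 at 4.09 and Aen at 3.27), a ratio of 2.50 (0.485 to 12.9).

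Nuclear genes of the respiratory chain had 27 of 95 (28.4%) in shDdx5 only and 5 (5.26%) in shControl only, a ratio of 5.40 (2.08 to 14.0). Ndufv3, of complex I (fold 5.49, pileup 19), and Cox8a, of complex IV (fold 4.74), led the first, and Ndufa8 (fold 4.53) the second. Proteasome subunits had 11 of 48 and 2 (ratio 5.50, 1.22 to 24.8), led by Psmb3 (fold 4.48, pileup 21) and by the immune subunit Psmb9 (fold 4.84). Cytosolic ribosomal proteins had 16 of 86 (18.6%) and 6, with Rps27a (fold 5.29) and Rpsa (fold 4.56), and mitochondrial ones 15 of 78 and 8, with Mrpl32 (fold 5.32) and Mrpl16 (fold 4.44). Chaperones had 13 of 83 and 6, and of the first Hspa1a and Hspa1l, both of the HSP70 family, shared 1 peak (fold 5.26). F-box proteins and ubiquitin-specific proteases had 29 of 127 and 14.

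Of 26 immediate-early genes, which are switched on within minutes of growth signals, 9 had a promoter peak in both lists (Fos, Jun and Egr1 among them), 8 in shDdx5 only (Junb, Klf4 and Ier2 among them) and 0 in shControl only. The shDdx5-only peaks of highest −log10 q in this list were at Btg1 (fold 4.26) and Nr4a2 (fold 3.94). Interferon-stimulated genes and interferon regulatory factors, counted together, had few promoter peaks. Of 65, 2 had one in shDdx5 only (Irf4 and Rsad2, both at fold 3.74) and 4 in shControl only (among them Ifit2 at 3.40 and Irf1 at 3.26). Fos, Jun, Egr1, Junb, Klf4 and Ier2 were picked as examples after the counts were seen.

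Matrix genes, typical products of fibroblasts, had 19 of 108 (17.6%) in shDdx5 only and 8 (7.41%) in shControl only. An island-like promoter was found in 32.4% of them, against 44.4% of all protein-coding genes. Col8a2 (fold 3.89) and Lamb2 (fold 3.92) led the first and Lama3 (fold 4.09) the second. Zinc-finger genes had 66 of 394 (16.8%) and 14 (3.55%), a ratio of 4.71 (2.65 to 8.39), led by Zfp948 (fold 5.91) and Zfp526 (fold 4.93), and histone genes 8 of 73 and 2. HOX genes, which pattern the embryo, had 3 of 39 in each (in shControl only Hoxc10 and Hoxc5, with 1 peak between them at fold 3.07). Small nucleolar RNA host genes had 1 of 15 (Snhg17) and 2 (Snhg15 and Snhg18). Of 1093 olfactory receptor genes, silent in fibroblasts, 6 had a promoter peak in shDdx5 only and 5 in shControl only. Of 106 keratin genes 1 did (Krt80, fold 3.04).

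As a check of the cell label, promoter peaks were counted at marker genes. Of 14 fibroblast markers Vim had one in both lists, Fn1 and Twist1 in shDdx5 only and Pdgfra in shControl only, while Col1a1, Col1a2 and Col3a1 had none. Of 22 markers of epithelial, endothelial, blood, germ and neural cells 1 had one, Pou5f1 in shControl only. A peak shows no expression level, so this only describes the lists.

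Overlap with the other MEF lists was more frequent in the shDdx5-only class. The Mcm8 KO list is longer than the Mcm8 WT list, 9605 against 6481 peaks, so shares in the 2 are given without comparing them. A peak of the Mcm8 WT list was overlapped by 9.02% of shDdx5-only (8.45 to 9.61%) and 3.33% of shControl-only peaks (2.99 to 3.7%), and a peak of the Mcm8 KO list by 13.0% (12.4 to 13.7%) and 4.29% (3.91 to 4.71%). Shared peaks of the shDdx5 list overlapped them at 45.6% and 55.4%. At promoters the shDdx5-only shares were 16.2% in WT and 25.3% in KO, against 8.14% and 11.3% for shControl-only. In the highest 25% of the shDdx5 list by −log10 p, 44.0% of shDdx5-only peaks (41.5 to 46.4%) overlapped a WT or KO peak. For shControl-only peaks in the highest 25% of their list it was 13.0% (11.5 to 14.6%). These groups were not matched in strength, since they began at a −log10 p of 6.47 in shDdx5 and 5.42 in shControl. Their median widths were 447 and 319 bp, and 64.1% and 23.4% were at promoters. Overlap with the other MEF lists was not taken at equal −log10 p. No-antibody peaks were overlapped by 0.628% of shDdx5-only (0.487 to 0.809%) and 0.374% of shControl-only peaks (0.272 to 0.516%).

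**Figure D5:**
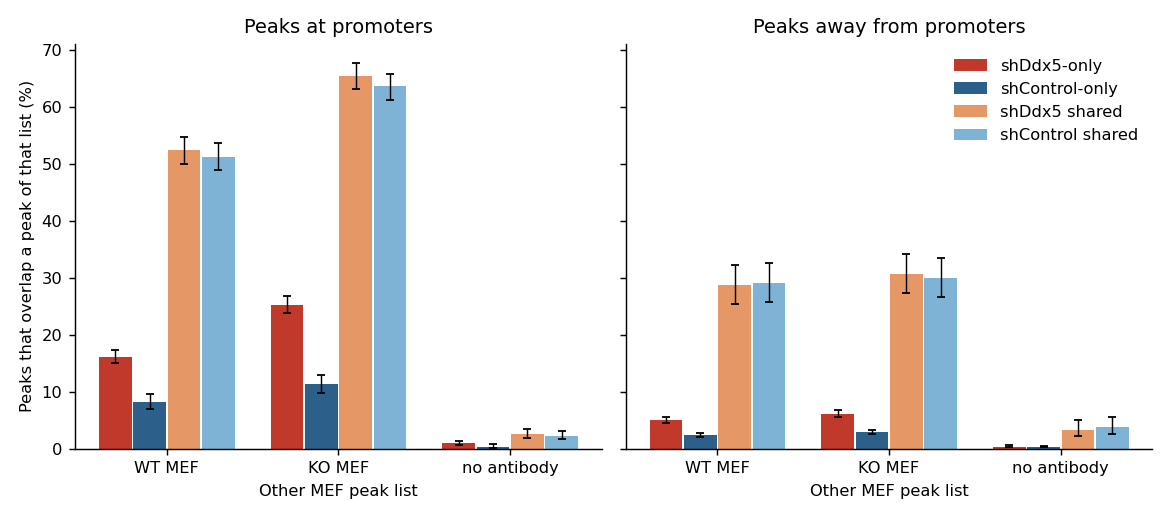
Share of the peaks of each class (%) that overlap a peak of the Mcm8 WT, Mcm8 KO or no-antibody MEF list, for peaks at promoters (left) and elsewhere (right). Bars start at 0 and whiskers are 95% intervals for counting error. At promoters 25.3% of shDdx5-only and 11.3% of shControl-only peaks overlap a KO peak, and shared peaks reach 65.5 and 63.7%.

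By chromosome the ratio of shDdx5-only to shControl-only peaks ran from 0.817 to 1.08 over the autosomes. On X it was 0.726 (0.573 to 0.919), with 119 and 164 peaks.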

How the data were processed

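CUT&Tag with S9.6 was done on 1 library per group. The authors trimmed reads (the notes name Trimmomatic), aligned them to mm10 with bowtie2 and called peaks with MACS2 on each library alone, without the no-antibody library as input. The submitters' processing notes give MACS2 2.1.2, the study's methods give another version, and the calling threshold is not given in the sources used here (the lowest −log10 p was 3.00 in both lists). The deposited peak lists give per peak a fold enrichment (a ratio over local background), the −log10 of a p-value and of a q-value, a score that was not used, and a summit. Read totals were not used, and depth is relative, taken from the peaks.

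All peaks on assembled chromosomes were used. The pileup and background at a summit were solved from the fold and the Poisson p, with a constant added to both in the fold. This failed for 1 shControl and 3 shDdx5 peaks. Genes and TSSs were from GENCODE M21, and GC content and repeat masking from GRCm38.p6. Position was given by the peak midpoint, in the order promoter, 1 to 3 kb, coding exon, other exon, intron, within 1 kb after a gene and intergenic. Shares have 95% Wilson intervals, differences intervals built from these, ratios Poisson intervals on the log scale and medians order-statistic intervals. Peaks of 1 library are not replicates. Overlap counting and pileup recovery were tested on simulated data. Computation used scipy 1.17.1, pandas 2.3.3 and numpy 2.4.6 under Python 3.11.15.

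The comparison, gene lists and naming rules were chosen with earlier results of these data known. Named were Ddx5, Ddx17, Dhx9, Mcm8 and Cdk4, the 8 highest −log10 q among shDdx5-only and among shControl-only peaks, 5 shared pairs, and up to 2 genes per gene list and direction by −log10 q, some of which are not reported here. Sequences were shown for at most 3 such peaks per class with a summit window over no exon and not on chromosome 8 or 18. Gene lists were matched by symbol, and 2 symbols had no match.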

Additional observations from a re-analysis of the deposited data

How the results depend on the processing

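Of 52 alternative values 17 stayed within the counting interval of the reported one. The peak count ratio, 0.960, turned to 2.07 with a q of 0.05 or lower, 4.79 with 1e-05 or lower and 1.37 with a fold of at least 4. The limits on q were looser in p for shDdx5 than for shControl. Every difference between the classes kept its direction. In the order q of 0.05 or lower, q of 1e-05 or lower, fold of at least 4 and the 3000 peaks of highest −log10 p, the promoter difference was 23.6, 21.8, 33.1 and 37.0 percentage points, the GC difference 4.81, 5.23, 8.63 and 9.33 points, the width difference 65.0, 126, 111 and 138 bp, and the gene ratio 6.34, 25.2, 3.71 and 2.50. The shDdx5 share overlapped was 18.2, 16.2, 22.5 and 31.4%, and the shControl share 37.7, 77.8, 30.9 and 31.4%. With 50% of both peaks in common the shares were 12.2 and 11.7%, the promoter difference 17.7 points and the width difference 64.0 bp. With peaks within 1 kb counted as overlapping the shares were 23.4 and 22.3%. A 3 kb promoter window gave a difference of 17.0 points and a gene ratio of 2.07. The cause of these shifts was not tested. Only 44 shControl-only peaks remained at a q of 1e-05. Leaving out peaks with a no-antibody peak changed none of these values beyond counting error, and merging peaks within 500 bp, run for the peak count ratio and the overlapped shares, did not change those. No paired analysis was possible because each group held 1 library.

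With summits of 8 to 10 fragments in the median peak of 1 list, a peak missing from a list is not shown to be absent from its cells.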
